A study of Caenorhabditis elegans with 4 samples.

Results

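Some stretches of the Caenorhabditis elegans genome carried runs of closely spaced MEP-1 peaks, and these dense runs are described here. The peaks came from a list that was made from 4 libraries of 1 strain, with 2 libraries of DNA recovered by an anti-GFP antibody (ChIP) and 2 libraries of input DNA as control. The clustered peaks were chosen by their positions in that list, which the authors gave on genome build WormBase WS180: neighbouring peaks were joined where at most 1000 bp lay between them, and all peaks of joined regions with 5 or more peaks were kept. This gave 458 clustered peaks in 72 dense regions, or 4.0% of the 11448 listed peaks. They were set against the 7246 peaks that stood alone, and the remaining 3744 peaks lay in regions of 2 to 4.

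All libraries, the inputs included, came from hermaphrodite embryos of strain OP70, which carries the unc119(ed3) mutation and the integrated transgene wgIs70, at 20 °C. The labels give the transgene as made by bombardment and holding mep-1 tagged with TY1, EGFP and FLAG beside unc119, so binding was read from a tagged copy, and no library of untagged embryos was analysed here. Whole embryos were crosslinked with 2% formaldehyde, so the peaks of different cell types and embryonic ages are summed.

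The zinc-finger protein MEP-1 works with the chromatin remodeller LET-418, a Mi-2 homologue, and the histone deacetylase HDA-1. The complex is known in worm embryos and larvae for keeping germline genes off in somatic cells. A chromatin factor of this kind can be found at short, sharp sites or over longer stretches of chromatin, and a peak caller that splits a stretch wherever its signal drops lists such a stretch as a run of peaks.

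The list holds 1 q-value for each peak and no value for any single library, so no spread between replicates exists and no test was made. Comparisons below are descriptions of this list, with quartiles over peaks or regions. Per the file headers the caller was PeakSeq, and the q-values show that it had tested 15494 regions, of which 73.9% were listed at a q up to 0.00991. All clustered peaks are among the listed ones by definition. ChIP and scaled control reads were back-calculated from the q-values, which gave 1 pair of whole counts for each of the 458 clustered peaks if the tail behind each p-value includes the observed ChIP count. Which way the caller counts was not given in the sources used here. With the observed count left out, 1 read of every peak passes from the ChIP to the control side and all ratios are lower: the medians below become 3.25 for clustered and 3.27 for lone peaks. Peaks that lie near each other could share reads at their borders, and how the caller treated these is not given in the sources used here, so a sum over a region may count a read more than once.

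Dense regions were a few kilobases long and a little under 50% of their length was peak. Their spans ranged from 2976 to 15060 bp, with a median of 5019 bp (quartiles 3997 and 6118 bp, 72 regions). In total they spanned 391 kb, of which 187 kb (47.8%) lay in peaks. Of the 72 regions, 32 held 5 peaks, 18 held 6 and 22 held 7 or more. Regions of 5 peaks had a median span of 3996 bp, and those of 9 peaks 6433 bp. The shortest region lay on chromosome II from 8414319 to 8417294, where 5 peaks covered 37.5% of 2976 bp.

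Gaps inside joined regions were bounded on both sides, by the shortest gap in the list, 200 bp, and by the join distance of 1000 bp. Their range therefore follows from the list and the rule. The 386 inner gaps had a median of 493.5 bp (quartiles 324.5 and 688.5 bp) and ran from 200 to 998 bp, with 4 of exactly 200 bp. Gaps inside the regions of 2 to 4 peaks had a median of 536 bp (2125 gaps). Under 300 bp lay 20.5% of the inner gaps of dense regions, against 18.0% in regions of 2 to 4. From one peak midpoint to the next, the median step in a dense region was 890.5 bp (quartiles 693.5 and 1117 bp).

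The longest run of peaks lay on chromosome II from 6822247 to 6837306, where 15 peaks covered 62.0% of 15060 bp. A peak of 3538 bp near its middle, from 6826660 to 6830197, held 617 of the region's 1862 ChIP reads (33.1%), against 144 scaled control reads. It was the widest of the 458 clustered peaks. On its left stood 6 peaks of 200 to 370 bp with 46 to 85 ChIP reads each, and on its right 8 peaks of 10 to 1379 bp. The 10 bp peak, from 6836850 to 6836859, had 27 ChIP and 5 control reads. This region was thus a mixture of a broad peak, a few peaks near 1000 bp and short ones, all within 15.1 kb.

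**Figure D1:**
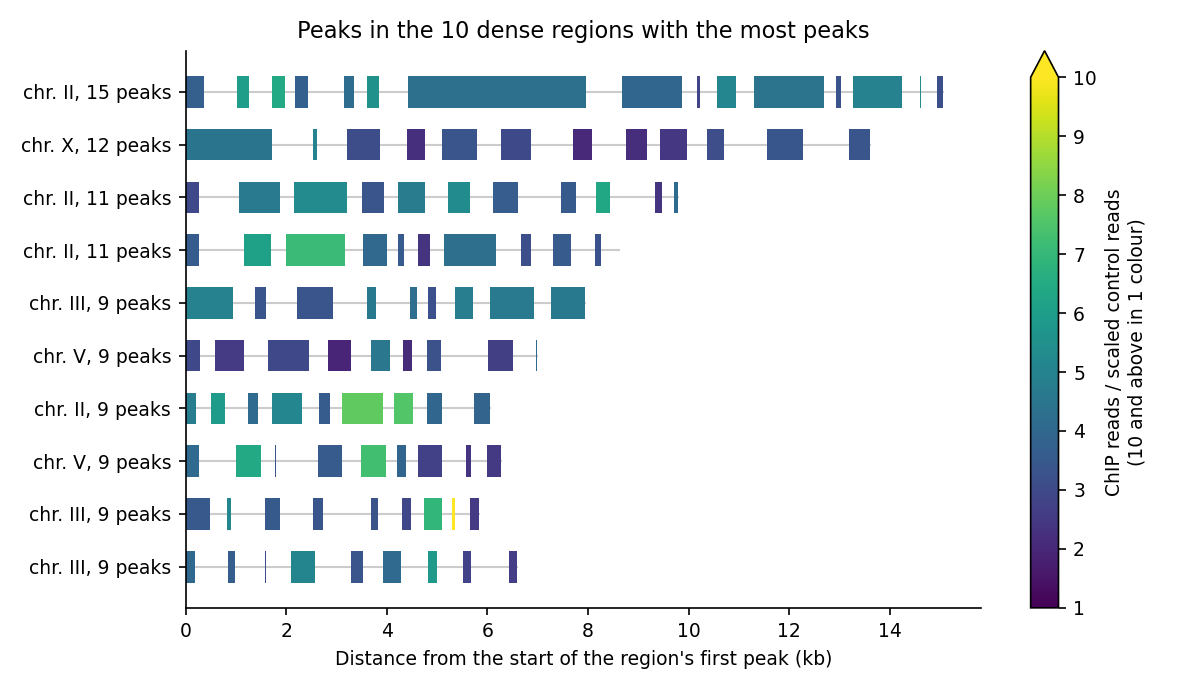
Peaks of the 10 dense regions with the most peaks, one region per row, with distance from the first peak's start in kb on the horizontal axis. Coloured bars are peaks drawn to scale and coloured by the ratio of ChIP to scaled control reads, and grey lines are the gaps. Broad peaks stand beside short ones in the top rows, whereas the bottom 2 rows hold no peak wider than 483 bp.

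Chromosome X carried the next largest region, from 12171235 to 12184832, with 12 peaks over 13598 bp. Its first peak was its strongest by ChIP reads and by q, at 1712 bp and 405 ChIP against 91 control reads. The other peaks were 98 to 712 bp wide, and their ratios of ChIP to control lay between 2 and 5. Unlike the run of 15 peaks on II, this region opened with its broad peak. It went on with peaks of fewer ChIP reads, though not all of lower ratio.

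A pair of regions on II held 11 peaks each. In the one from 7807990 to 7817785, no peak took more than 18.2% of the 1011 ChIP reads, the lowest such share of all 72 regions. In the other, from 10546589 to 10555204, a peak of 1170 bp with 326 ChIP reads and a ratio of 7.09 stood out from 10 others with ratios of 2.38 to 6.17.

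The 6 regions of 9 peaks lay on II, III and V. On III, the region from 7723111 to 7731058 was 53.7% covered, and its 9 ratios lay close together, from 3.18 to 4.97. The regions from 13525188 to 13531015 and from 6135263 to 6141850, also on III, were covered to 33.4% and 29.2%, with widest peaks of 483 and 480 bp. On V, the regions from 11335136 to 11342121 and from 10038723 to 10045000 had 621 and 700 ChIP reads, against 220 and 169 control reads. The region on II from 3955611 to 3961663 had 711 ChIP and 133 control reads, a ratio of sums of 5.35.

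Chromosomes I and IV held smaller runs. By number of peaks, the largest on I, from 7708810 to 7716063, had 7 peaks that covered 72.0% of its length. The largest on IV by the same count, from 10499829 to 10505275, had 6 peaks over 37.1% of its length, while another region on IV, of 5 peaks from 16491337 to 16498686, was covered to 61.3%.

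Clustered peaks were wider than lone peaks, a property that helps to close gaps and so took part in choosing them. Their median width was 299.5 bp (quartiles 171 and 505.5 bp), against 232 bp (quartiles 120 and 359 bp) for lone peaks. Peaks over 1000 bp numbered 30 of 458 clustered peaks, or 6.55% (exact Clopper-Pearson interval 4.46 to 9.22%), and 70 of 7246 lone peaks, or 0.966% (0.754 to 1.22%). Peaks under 50 bp made up 5.02% of the clustered peaks (3.21 to 7.44%) and 13.2% of the lone peaks (12.4 to 14.0%). These intervals cover counting error only, and peaks of 1 region are not independent of each other.

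Clustered peaks had the higher median width on each of the 6 chromosomes, by 110.5 bp on I, 50 bp on II, 35 bp on III, 156 bp on IV, 135.5 bp on V and 146 bp on X. The mean of these differences was 105.5 bp, larger than the pooled difference of 67.5 bp. The clustered peaks made up 14.4% of all 208 listed peaks over 1000 bp. Most dense regions nevertheless had no such peak: 22 of 72 held at least 1, and 23 held at least 1 peak under 50 bp.

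**Figure D2:**
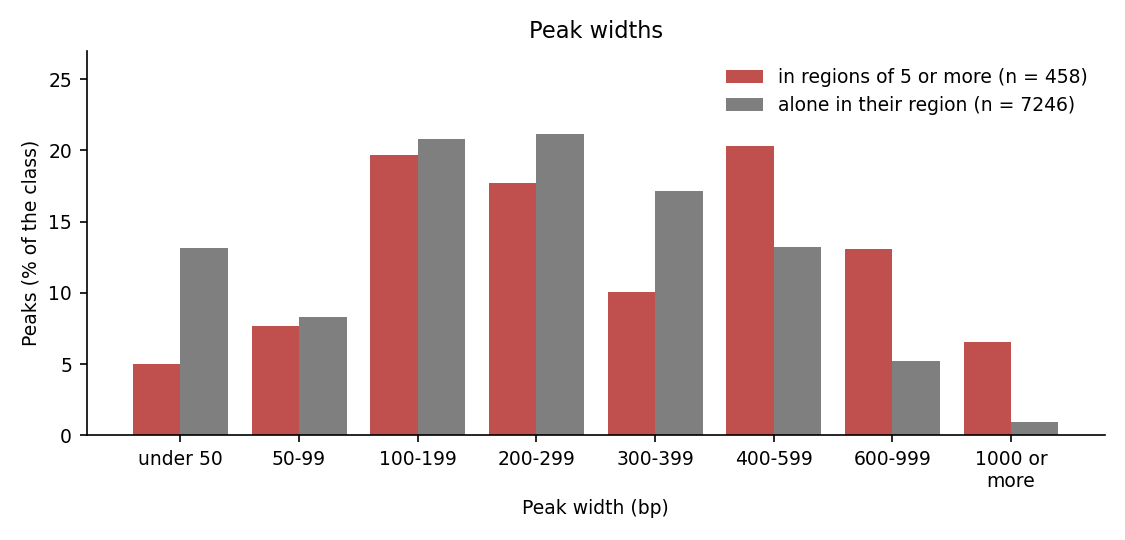
Share of peaks in each width class, in percent of the class of peaks, for the 458 peaks in regions of 5 or more (red) and the 7246 lone peaks (grey). Clustered peaks take larger shares from 400 bp upwards and smaller shares in every class below 400 bp, most clearly below 50 bp and from 300 to under 400 bp.

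Clustered peaks had lower q-values than lone peaks in the pooled list, and at equal width the direction varied with the width. The median of −log10 q was 5.47 for clustered peaks (quartiles 3.30 and 10.4) and 4.47 for lone peaks (quartiles 2.87 and 9.60), a difference of 1.00. When medians were compared within width classes and weighted by the clustered peaks, the difference turned to -1.03. Clustered peaks had the lower median of −log10 q in the 4 classes from 200 to under 1000 bp, for example 5.97 against 9.77 from 300 to under 400 bp. In the 3 classes under 200 bp and at 1000 bp or more they had the higher one, at 33.4 against 26.6 in the widest class. The clustered peaks were lower in q on 5 chromosomes and not on IV, where the difference in −log10 q was -0.98 with 21 clustered peaks. Among the 1145 listed peaks with the lowest q were 57 clustered peaks (12.4% of them), which lay in 37 of the 72 regions, and 727 lone peaks (10.03%). Among the 1145 with the highest q were 22 clustered peaks (4.80%) and 776 lone peaks (10.7%).

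Reads per peak were somewhat more numerous in clustered peaks, which were also wider, without a higher ratio. Clustered peaks had a median of 59 ChIP and 17 scaled control reads, and lone peaks 50 and 14. Per 100 bp of peak the order was the other way: the median was 21.6 ChIP reads in clustered peaks, 22.9 in regions of 2 to 4 and 24.2 in lone peaks. Very short peaks raise this measure: a clustered peak of 1 bp had 21 ChIP reads, or 2100 per 100 bp. Peaks under 50 bp made up 5.02% of clustered peaks, 11.1% of those in regions of 2 to 4 and 13.2% of lone peaks. The measure is thus not free of width, and the part of width in this order was not tested. Ratios of ChIP to control had a median of 3.57 in clustered peaks (quartiles 2.94 and 4.62) and 3.67 in lone peaks (quartiles 2.86 and 5.18). The difference of -0.10 between these was small and unsteady: it was 0.04 without chromosome III and 0.38 with a join distance of 500 bp. Peaks in regions of 2 to 4 also had a median ratio of 3.57.

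At middle widths the gap in ratio was larger. Clustered peaks of 300 to under 400 bp had a median ratio of 3.23 (46 peaks) and lone peaks of that width 4.62 (1243 peaks). From 400 to under 600 bp the medians were 3.58 (93 clustered peaks) and 4.59 (959 lone peaks), and from 600 to under 1000 bp 3.77 (60) and 4.58 (376). The quartile ranges of clustered and lone peaks overlapped in each of these classes. Peaks in regions of 2 to 4 lay between them, with medians of 3.93, 3.93 and 4.06 in the same order. A lower ratio than in lone peaks at these widths was thus not particular to dense regions. Among peaks of at least 1000 bp the medians were 4.52 (30 clustered peaks) and 4.50 (70 lone peaks). From 200 to under 300 bp they were 3.54 (81 clustered peaks) and 3.59 (1534 lone peaks). In the 3 classes under 200 bp clustered peaks had the higher median. Under 50 bp the medians were 3.71 (23 clustered peaks) and 3.57 (953 lone peaks). From 50 to under 100 bp they were 3.78 (35) and 3.25 (604), and from 100 to under 200 bp 3.17 (90) and 3.08 (1507). These differences rest on few reads. Under 50 bp both groups had median counts of 23 ChIP and 6 control reads. From 100 to under 200 bp the median counts were 36 and 35 ChIP reads, with 11 control reads in both.

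**Figure D3:**
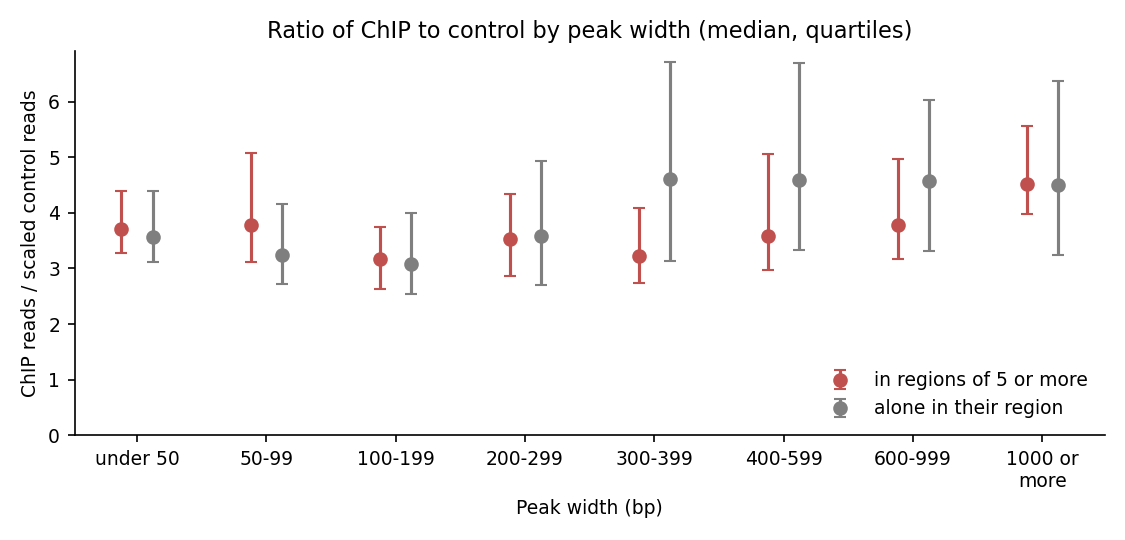
Ratio of ChIP to scaled control reads by peak width in bp, as medians (points) with quartiles (bars), for peaks in regions of 5 or more (red) and lone peaks (grey). From 300 to under 1000 bp the clustered peaks sit lower, at medians of 3.23 to 3.77 against 4.58 to 4.62, and at 1000 bp or more the medians meet at 4.52 and 4.50.

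From 300 to under 600 bp the clustered peaks had the lower median ratio within each of the 6 chromosomes, between which the scaled control differed. The same peaks had already shown the lower medians in the pooled classes, so this split is no separate support. Peaks of the same region are not independent of each other, and several of the 7 clustered peaks on I and on IV shared a region. For peaks of 300 to under 600 bp the median ratio on I was 2.62 in 7 clustered peaks and 4.40 in 414 lone peaks. On II it was 4.08 in 38 clustered peaks and 5.97 in 326 lone peaks, and on III 3.92 in 21 and 6.66 in 322. Chromosome IV had 2.38 in 7 clustered peaks and 3.27 in 364 lone peaks. Chromosome V had 3.22 in 43 and 5 in 316, and X had 3.00 in 23 and 3.65 in 460. Both counts moved: on V, clustered peaks of this width had medians of 80 ChIP and 23 control reads, and lone peaks 86.5 and 18. On X the control medians were equal at 25, with 76 ChIP reads in clustered peaks and 92 in lone peaks. On I the clustered peaks had more ChIP reads than the lone ones, 113 against 96, and also more control reads, 38 against 22. From 600 to under 1000 bp chromosome IV ran the other way, with a median ratio of 3.50 in 5 clustered peaks and 3.17 in 50 lone peaks, and the other 5 chromosomes had the lower median in clustered peaks.

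Within a dense region the peaks were unequal. The peak with the most ChIP reads held a median of 34.6% of the region's ChIP reads (quartiles 28.04 and 38.7%), and in 6 regions it held over 50%. The highest ratio in a region was a median of 2.24 times the lowest, and 5.07 times in the most uneven region. There the highest ratio, 13, was that of a 57 bp peak with only 26 ChIP and 2 control reads. Such a spread was not computed for other groups of peaks, so it is not shown to be particular to dense regions. The widest peak also had the lowest q in 50 of the 72 regions. It was the first or last peak in 26 regions (36.1%), while first and last peaks made up 31.4% of all clustered peaks. The median width and ratio of first and last peaks were 315 bp and 3.58 (144 peaks), and those of inner peaks 297.5 bp and 3.56 (314 peaks), so the runs showed little taper towards their ends.

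Summed over its peaks, a dense region had a median of 453.5 ChIP reads against 128 scaled control reads. The ratio of the sums ranged from 2.595 to 7.20 over the 72 regions (mean 4.01 ± 0.96, SD between regions), or from 2.44 to 6.19 under the other reading of the tail. Chromosomes overlapped: the median ratio of sums was 4.33 on II (21 regions), 3.89 on III (12), 3.50 on X (10), 3.48 on IV (4), 3.46 on I (6) and 3.43 on V (19).

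The highest ratio of sums, 7.20, belonged to a region of short peaks on III from 2127330 to 2132423. Its 7 peaks were 2 to 463 bp wide and together held 360 ChIP and 50 control reads. The lowest belonged to the region on I from 2738410 to 2743138, with 340 ChIP and 131 control reads over 6 peaks. In 2 regions, both on the left arm of II, no peak was wider than 300 bp. These ran from 2185851 to 2190140 and from 2800889 to 2805229, and their peaks covered 23.0% and 19.3% of them, the lowest coverage of all 72. At the other end, 5 peaks covered 73.0% of the region on III from 12611491 to 12617232.

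**Figure D4:**
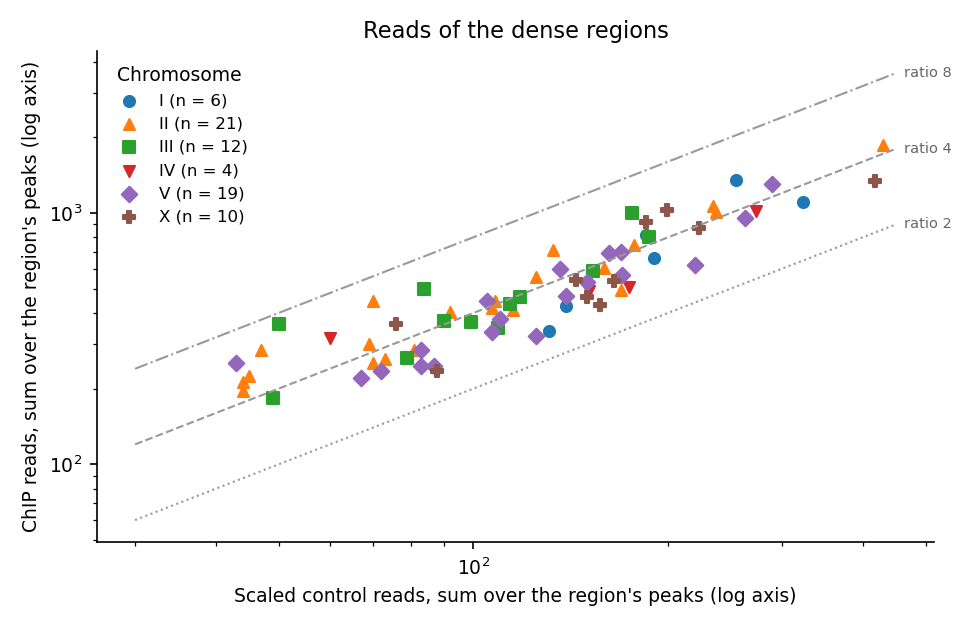
ChIP reads against scaled control reads, each summed over the peaks of a dense region, on log axes. Each point is 1 of the 72 regions, marked by chromosome, and the lines mark ratios of 2, 4 and 8. Regions of all chromosomes lie between ratios of 2.595 and 7.20 and overlap.

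The 5 strongest clustered peaks were broad, and 4 of them stood in regions of 5 peaks. The lowest q, 8.91e-112, was that of a peak on X from 11605064 to 11607023, the 7th lowest in the whole list. It had 703 ChIP reads (95% exact Poisson interval 652 to 757) against 96 control reads, and it held 68.4% of the ChIP reads of its region of 5 peaks, from 11603020 to 11608576. Next came a peak on I from 5315798 to 5317181, with a ratio of 7.64 and a q of 1.97e-94. It closed a region of 5 peaks from 5310370, in which a peak at 5312749 to 5314024 had a ratio of 6.74. The third, on V from 6226461 to 6229266, was 2806 bp wide in a region of 8 peaks and had a ratio of 5.57. The other 2 of these 5 opened their regions of 5 peaks, on IV from 16491337 to 16493368 (ratio 5.17) and on X from 11030841 to 11032214 (ratio 7.76).

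Dense regions were unevenly spread over the chromosomes. Chromosome II held 21 regions with 143 clustered peaks, V 19 with 120, III 12 with 78, X 10 with 62, I 6 with 34 and IV 4 with 21. Per 10 Mb of chromosome up to its last peak these are 13.7 regions on II, 9.08 on V, 8.71 on III, 5.64 on X, 3.98 on I and 2.29 on IV. Chromosome II thus held 31.2% of the clustered peaks and 17.3% of the lone peaks, and chromosome I 7.42% of the clustered and 16.5% of the lone peaks. The scaled control was lower where dense regions were more frequent: in lone peaks its median was 11 reads on II, 12 on V and 11 on III, against 18 on X, 16.5 on I and 20 on IV. The order was not strictly inverse, since V lies above III and X above I in both measures. Listed peaks were also unequally dense, for example 2053 over 13.8 Mb on III and 1371 over 17.5 Mb on IV. Of all listed peaks of a chromosome, clustered peaks made up 6.67% on II, 5.69% on V, 3.80% on III, 3.13% on X, 1.90% on I and 1.53% on IV. The parts of the control and of peak density in the frequency of dense regions were not tested.

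A larger share of clustered than of lone peaks lay in the middle of the chromosomes, the part that is rich in genes on worm autosomes. In the middle 0.5 lay 319 of 458 clustered peaks (69.7%) and 53.3% of the lone peaks. Peaks in regions of 2 to 4 lay between, at 57.2%, and the share over all listed peaks was 55.2%. The rule picks places where listed peaks are dense, so the density of the list helps to set this difference, and no test was made. Over regions the share was 48 of 72 (66.7%, exact Clopper-Pearson interval 54.6 to 77.3%), a fairer count because peaks of a region share their place. The excess was found on I (82.4% of clustered and 52.6% of lone peaks), on II (79.7 and 55.0%), on X (71.0 and 49.2%) and on V (66.7 and 56.7%). On III (53.8 and 54.1%) and on IV (52.4 and 51.9%) the shares were close. Counted over regions, the middle 0.5 held 5 of 6 on I, 16 of 21 on II, 7 of 10 on X and 12 of 19 on V. It held 6 of 12 regions on III and 2 of 4 on IV, so shares of single chromosomes rest on few regions. Dense regions also occurred near chromosome ends: 1 on II ran from 158420 to 162581, and 1 on III from 13717332 to 13721514, at 99.6% of the chromosome.

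**Figure D5:**
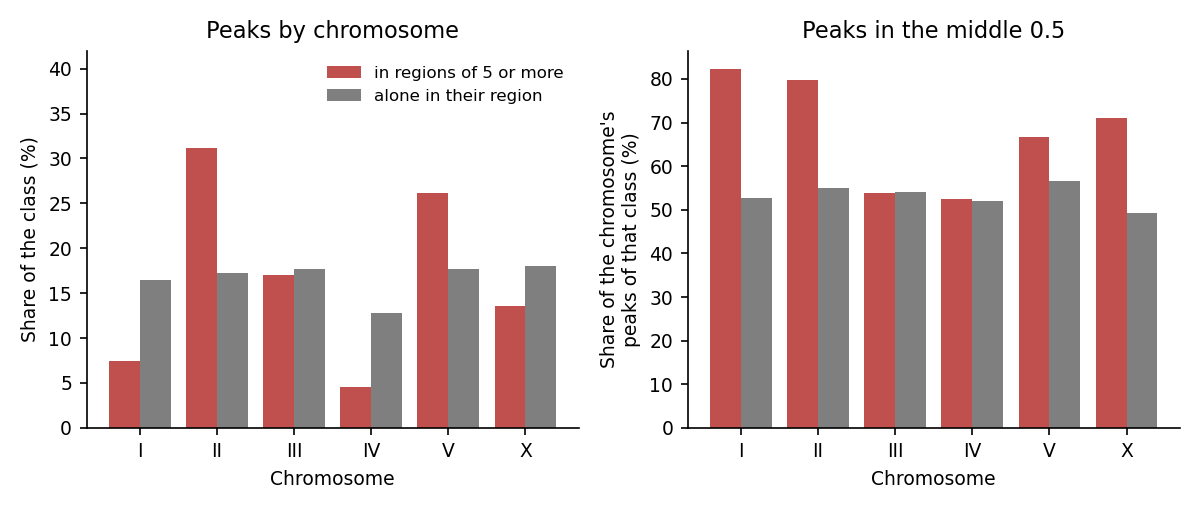
Left, share of the 458 peaks in regions of 5 or more (red) and of the 7246 lone peaks (grey) on each chromosome, in percent. Right, share of each chromosome's clustered and lone peaks that lay in its middle 0.5, in percent. Clustered peaks lean towards II and V, and towards the middle of I, II, V and X.

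The join distance divided regions whose gaps lay a few bases on either side of it. Just inside it, dense regions would have split into parts of under 5 peaks without inner gaps of 998 bp (II, 8747132 to 8751374), 997 bp (V, 19186002 to 19190435), 980 bp (I, 8133546 to 8138957) and 978 bp (IV, 10499829 to 10505275, and III, 10815891 to 10820834). Just outside it, regions of 4 peaks missed a neighbour by gaps of 1003 bp (III, 4195418 to 4197005), 1020 bp (V, 10468394 to 10470672), 1027 bp (III, 1924964 to 1928070), 1057 bp (V, 14423199 to 14426225) and 1077 bp (IV, 3763720 to 3766753). For the 160 peaks in regions of 5 the median width was 322.5 bp and the median ratio 3.54, and for the 388 peaks in the 97 regions of 4 they were 266.5 bp and 3.62.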

How the data were processed

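Libraries came from C. elegans embryos, 2 from ChIP and 2 from input. The authors deposited 1 combined list of PeakSeq regions on WormBase WS180, per the file headers, with a q-value for each peak. Sources used here do not give the PeakSeq version, the aligner, any filter or how replicates were merged, so library depth is unknown. The gene table at hand describes another build, WBcel235, so genes and sequences are not given.

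Coordinates were counted from 1 with both ends included. Peaks were sorted and joined at gaps up to 1000 bp, and regions of 5 or more kept. Chromosomes were taken to end at their last peak. Multiplying each q-value by its place in the list and dividing by the number of tested regions gave p-values. These matched one-sided binomial tails (probability 0.5, observed ChIP count included) to 1e-10 (natural log) in 11440 of 11448 peaks. Of the others, 7 matched several pairs and 1 none with up to 2500 reads. Control reads recovered this way had already been scaled and rounded by the caller. The joining and back-calculation were tested on simulated data. The simulated q-values were made by the same formula, so this checked the code and not the assumptions about the caller.

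Positions named were the 10 regions with most peaks, the region with most peaks on each chromosome, the 5 clustered peaks of lowest q (1 per region), the longest and shortest regions and those nearest the limit. Others were chosen after their values were seen. The peaks and rules were chosen with earlier results of these data known. Python 3.11.15, pandas 2.3.3, numpy 2.4.6, scipy 1.17.1 and matplotlib 3.10.9 were used. Alternatives changed the join distance, region size, q limit, minimum width, comparison set and chromosomes.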

Additional observations from a re-analysis of the deposited data

How the results depend on the processing

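Of 65 values recomputed, 36 kept their direction and stayed within 1.5 times, 26 moved further and 3 changed direction; the causes were not tested, though fewer or more peaks follow from each limit. A join distance of 500 bp left 10 regions and 64 peaks, with differences (clustered minus lone peaks) of 180.5 bp in width, 2.58 in −log10 q, 0.38 in ratio, a change of direction, and 37.6 percentage points in the middle 0.5. A distance of 2000 bp gave 200 regions and 1346 peaks, with 33 bp, 0.26, -0.20 and 8.88 points. The better 50% of the peaks by q left 12 regions and 73 peaks, with 147 bp and a ratio difference of -0.62. Regions of 4 or more numbered 169 with 846 peaks, and of 6 or more 40 with 298. Peaks of at least 50 bp gave 0.56 in −log10 q. Within chromosomes the mean width difference was 105.5 bp. Within width classes the difference in −log10 q turned to -1.03 and that in ratio was -0.39. The ratio difference was -0.17 without chromosome II, 0.042 without III (a change of direction), -0.058 against all other peaks, -0.029 with 1 read added to both counts and -0.023 with a tail without the observed ChIP count. Width classes for the ratio, that tail and medians over regions were added after seeing the data. Peaks of the stricter settings, 64 and 73, were all among the 458. This follows from the rule, since stricter limits can only split or shrink joined regions, and is no sign of stability. No paired analysis was possible because values of single libraries are not in the list; leaving out a replicate was not possible either. Since depth is unknown and unlisted regions are not at hand, no alternative could add a peak.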

Other observations

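Surroundings of dense regions were somewhat richer in peaks than those of lone peaks, with the same median as around smaller runs. Within 25 kb on either side, other peaks had a median density of 14 per 100 kb around the 72 dense regions (quartiles 10 and 22), also 14 around the 1619 regions of 2 to 4 peaks (quartiles 8 and 18), and 12 around the 7246 lone peaks (quartiles 8 and 18). The difference between dense regions and lone peaks was largest on II, with medians of 20 and 14 per 100 kb, and the medians were equal at 12 on I and on X. Distances to the nearest peak outside a region all exceed 1000 bp by the joining rule. Their median was 1792 bp for dense regions, 2516 bp for regions of 2 to 4 and 3150.5 bp for lone peaks. An exception was the region of 8 peaks on V from 4963003 to 4969653, whose nearest other peak lay 47234 bp away.

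Dense regions were mostly far from each other, with a median of 658 kb between neighbours on a chromosome (66 distances), but 6 neighbours lay within 100 kb. The closest pair, on V from 13018058 to 13022556 and from 13023748 to 13028334, held 6 peaks each and was separated by 1191 bp, just over the join distance. Another pair on V, from 19619255 to 19624684 and from 19632892 to 19636901, lay 8207 bp apart, and the other 4 pairs lay on II. These positions were chosen after their values were seen.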
